A study of Rattus norvegicus with 8 samples.

Results

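The ATP-binding cassette (ABC) transporters and the organic anion transporting polypeptides of the liver were compared between rats fed a high phosphorus (HP) diet and rats fed a control diet. The set was made of the genes of ABC subfamilies A, B, C and G and of the organic anion transporter (Slco) family that the array annotation names by a single symbol, and it held 42 genes with 62 probe sets, of 14217 genes with such a name. A gene was taken as measured where at least 1 of its probe sets had a highest and a lowest array at least 0.05 apart on the log2 scale, and the brightest of these probe sets stood for the gene. This left 14 of the 42 genes, as against 2808 of the 14217 genes on the array. The 4 rats of the HP diet group ate a diet with 1.2% phosphorus and the 4 rats of the control diet group ate a diet with 0.3% phosphorus, each for 24 days. Both diets were built on AIN-93G, a purified rodent diet, and all rats were Wistar males, 8 weeks old by the labels, with no other treatment. Total RNA from a piece of whole liver of each rat was hybridised to its own Affymetrix array, and the labels call the rats biological replicates. Values are log2 levels of a probe set, and a difference is the mean of the HP diet group minus that of the control diet group.

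Hepatocytes are polarised cells that take solutes up from the sinusoidal blood on one face and secrete bile into canaliculi on the other. ABC transporters use ATP to pump lipids, conjugates, drugs and pigments out of the cell, mostly into bile, whereas the organic anion transporting polypeptides carry bile acids, bilirubin, hormones and drugs in from the blood without ATP. Several of the proteins are interdependent, since the lipid exporters of the canaliculus supply the phospholipid and sterol of bile, and a few ABC genes encode subunits or mitochondrial carriers that lie outside these 2 faces.

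The arrays were alike in scale, with medians of 6.65 in all 8 and correlations between arrays of 0.968 to 0.992. Of 5 hepatocyte markers on the array, Alb (mean of 14.53), Ttr (13.96) and Serpina1 (13.81) were near the top of the scale but near constant, so that they show the tissue and not a difference. The 2 that were measured were Cps1 and Apoa1 (difference 0.02). Cps1 had a mean of 12.10 in HP rats and 12.37 in control rats (difference -0.27, diets separated, FDR of 0.0179 for a lower level). The paper counts Cps1 among the urea cycle genes that were lower on the HP diet. Of 2 erythroid markers on the array, Hbb was measured and called higher (difference 0.24, FDR 0.0298). The part of these differences in the transporter values was not tested. Of 5 cholangiocyte markers on the array, 0 spanned 0.05. Because whole tissue was used, fewer cells of a type and less RNA per cell cannot be told apart.

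Of the 14 measured transporters, 2 were higher in HP diet-fed rats by rank products, Abcg2 and Abca8a, and 0 were lower. Rank products subtract each control array from each HP array, order the probe sets within each of these 16 differences and give a false discovery rate (FDR), here with a threshold of 0.05. The method called 8.4% of all probe sets spanning 0.05 as higher and 12.1% as lower, so that 2 of 14 and 0 of 14 stand against these shares. Over all 31042 probe sets, the shares called were 1.12% higher and 1.62% lower. Limma, a moderated linear model over the 4155 spanning probe sets, called 0 of the 14 members at an adjusted p under 0.05, as it called 0 of all probe sets. At an unadjusted limma p under 0.05, the same 2 members were higher and 0 were lower, where the background was 5.37% higher and 7.29% lower. The 4 HP rats lay above the 4 control rats for these 2 members also, and for 0 members did they lie below, against 3.1% and 4.07% of all tested probe sets. All these counts rest on the brightest measured probe set of each gene. Dimmer probe sets of Slco1b2 and Abca1 were called lower by rank products, and the paper lists Abca1 as lower. That of Slco1b2 also had separated diets and an unadjusted limma p of 0.0417. The median size of the difference was 0.09 for the members and 0.09 for all tested probe sets, without regard to sign.

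**Figure D1:**
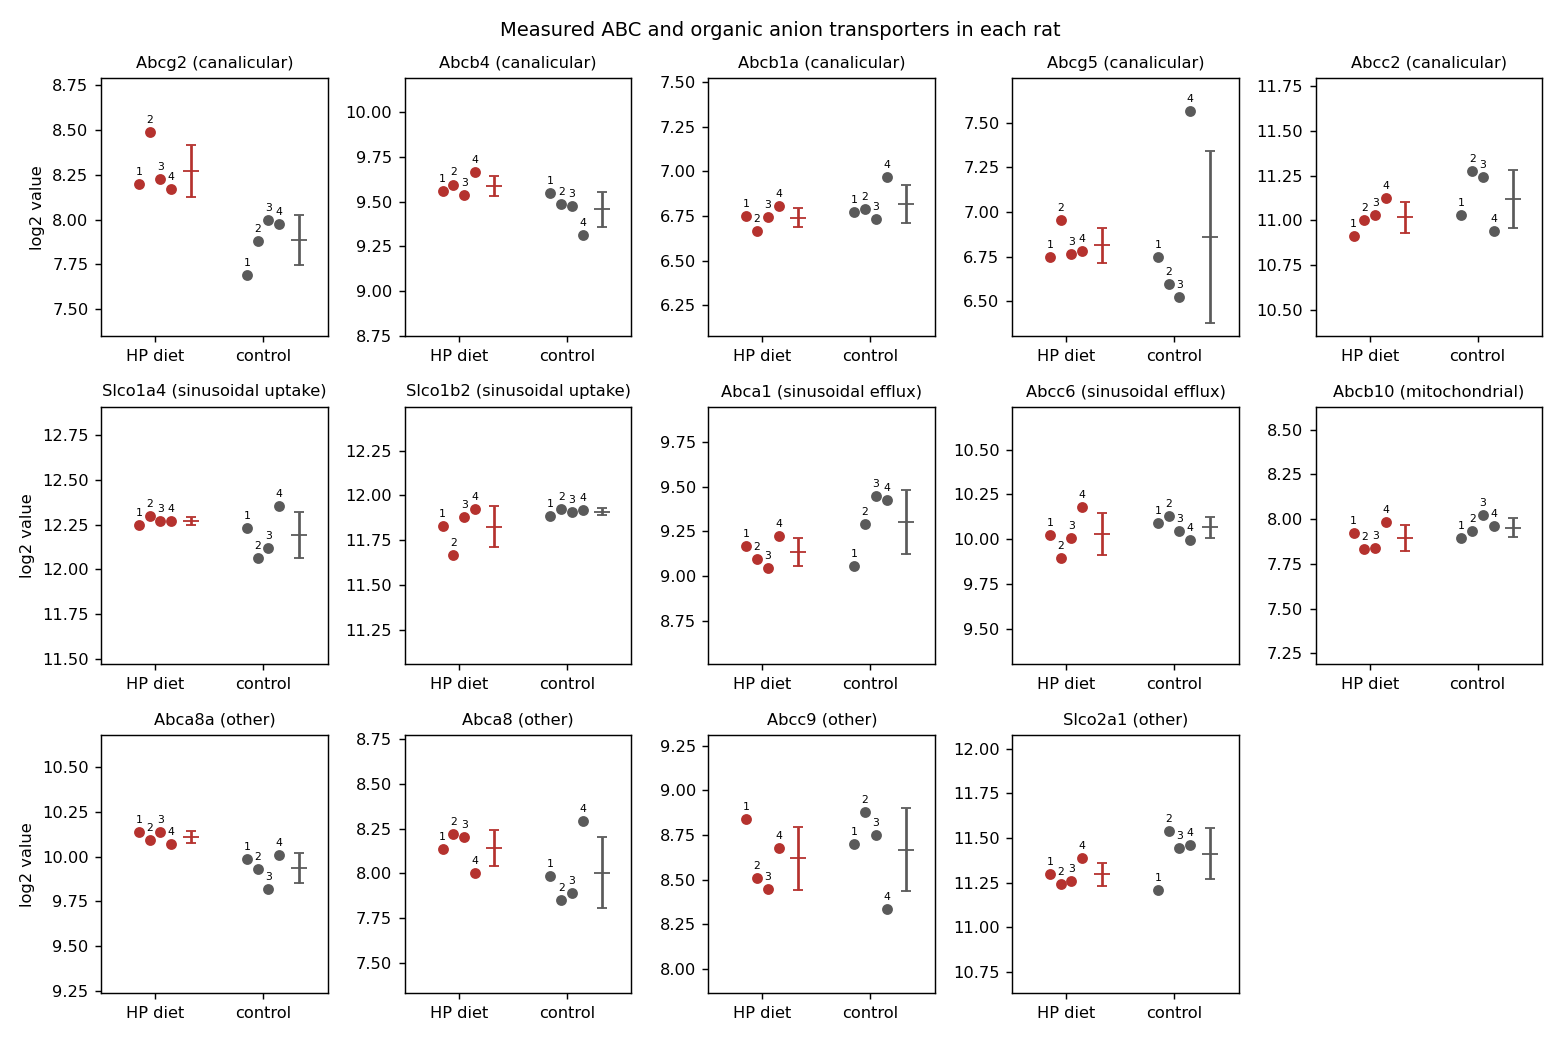
Log2 value (vertical axis, the same height of scale in each panel) of the 14 measured transporters in each rat, with HP diet-fed rats in red on the left and control diet-fed rats in grey on the right, rats numbered 1 to 4, and the mean with its SD as a bar beside the points. The diets are apart for Abcg2 (8.17 to 8.49 in HP rats, 7.69 to 8.00 in control rats) and Abca8a (10.07 to 10.14 in HP rats, 9.82 to 10.01 in control rats) and overlap for the other 12.

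Of the listed transporters of the bile canaliculus, 6 were on the array and 5 were measured. Abcg2 encodes the breast cancer resistance protein, which exports urate, porphyrins and sulfated conjugates. It read 8.20, 8.49, 8.23 and 8.17 in the livers of the 4 HP diet-fed rats, against 7.69, 7.88, 8.00 and 7.98 in control diet-fed rats. All HP rats were above all control rats, with HP rat 2 the highest and control rat 1 the lowest of the 8. The means were 8.27 ± 0.15 in HP rats and 7.89 ± 0.14 in control rats (SD, n = 4 each), which is a 1.31-fold difference, and 141 of the 4155 probe sets had a larger difference in either direction. The difference of 0.39 (SE 0.10, 95% interval 0.16 to 0.61) had an FDR of 0.0019 by rank products and an adjusted p of 0.233 by limma. When only the probe sets spanning 0.05 were ranked, the FDR was 0.188, and 0.60% of those probe sets were called higher. Abcg2 is also expressed by endothelial cells, and of 6 sinusoidal endothelial markers on the array the 4 that were measured all had positive differences (median 0.19), with Kdr (0.26) and Stab2 (0.23) called higher by rank products. Their summed linear level was 3295 to 3676 in HP rats and 2960 to 3331 in control rats, and the part of these cells in the Abcg2 difference was not tested.

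Abcb4 encodes the floppase that moves phosphatidylcholine into the outer leaflet of the canalicular membrane, from where bile salts carry it off. Its values were 9.56, 9.60, 9.54 and 9.66 in HP rats and 9.55, 9.48, 9.48 and 9.31 in control rats. The groups touched at control rat 1, which was above HP rat 3, and control rat 4 was the lowest. The difference was 0.13 (interval -0.01 to 0.28), with an FDR of 0.0659 by rank products and an adjusted p of 0.416 by limma. Without control rat 1 the difference was 0.16 with an FDR of 0.0285, and without control rat 4 it was 0.09 with an FDR of 0.115.

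The other measured canalicular genes had differences below 0. Abcc2, the pump for bilirubin glucuronides and glutathione conjugates, was at 10.91, 11.00, 11.03 and 11.13 in HP rats and at 11.03, 11.27, 11.24 and 10.94 in control rats. Control rats 2 and 3 were above every HP rat, whereas control rat 4 was below all HP rats but one, so the groups overlapped (difference -0.10, interval -0.29 to 0.08, adjusted p of 0.575 by limma). The difference was -0.16 without control rat 4 and -0.05 without control rat 2. Abcb1a, a P-glycoprotein that exports drugs and other hydrophobic compounds, had 6.75, 6.67, 6.75 and 6.80 in HP rats and 6.77, 6.79, 6.73 and 6.97 in control rats. The groups lay within each other but for control rat 4 at the top and HP rat 2 at the bottom (difference -0.07, interval -0.28 to 0.13). A second, dimmer Abcb1a probe set had the same sign, with a difference of -0.15, and there too control rat 4 was the highest at 7.15. Both probe sets were near the array median of 6.65, with mean levels of 6.78 and 6.65. Abcb1a has a close paralog, Abcb1b, and the annotation gave no probe set to Abcb1b alone, so that signal from the paralog cannot be told apart.

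Abcg5, which pairs with Abcg8 to export sterols into bile, had the widest spread of the set. Its values were 6.75, 6.96, 6.76 and 6.78 in HP rats, against 6.75, 6.60, 6.53 and 7.57 in control rats. Control rat 4 was the highest of all, and the other 3 control rats were below the lowest HP rat. Control rat 1 (6.749) was only just below HP rat 1 (6.751). The mean level of 6.84 was near the array median of 6.65. With all rats the difference was -0.05 (interval -0.53 to 0.44, adjusted p of 0.946 by limma). Without control rat 4 it was 0.19, with an FDR of 0.0278 by rank products, so that this 1 rat set the sign. The partner Abcg8 was at 6.12 with a span under 0.01 and gave no difference to read.

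The promoter sequences of 3 canalicular genes are shown to set the member with separated diets, Abcg2, beside 2 of the same membrane whose diets overlapped. They are from RefSeq on build GRCr8, cover 250 bases before to 50 after the gene start, and read in the direction of transcription. A promoter was found for 13 of the 14 measured members. Capitals mark matches on either strand. The letters searched were GGGCGG for the GC box, TATAAA for the TATA box, CCAAT for the box of that name, AGGTCA for the single site of nuclear receptors, CACGTG for the E box, TGACNNNGC for the antioxidant element, GCGTG for the core bound by the aryl hydrocarbon receptor and TGACGTCA for the cAMP element, the last of which was added after the sequences had been read.
Abcg2 (chr4:89075224-89075523, plus strand): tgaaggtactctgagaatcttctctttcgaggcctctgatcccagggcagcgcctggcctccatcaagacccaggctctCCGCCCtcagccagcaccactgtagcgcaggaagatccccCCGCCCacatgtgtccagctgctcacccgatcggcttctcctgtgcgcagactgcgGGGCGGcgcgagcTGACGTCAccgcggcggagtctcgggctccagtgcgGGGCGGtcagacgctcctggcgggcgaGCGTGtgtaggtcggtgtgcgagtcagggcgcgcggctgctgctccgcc
Abcb4 (chr4:26164096-26164395, minus strand): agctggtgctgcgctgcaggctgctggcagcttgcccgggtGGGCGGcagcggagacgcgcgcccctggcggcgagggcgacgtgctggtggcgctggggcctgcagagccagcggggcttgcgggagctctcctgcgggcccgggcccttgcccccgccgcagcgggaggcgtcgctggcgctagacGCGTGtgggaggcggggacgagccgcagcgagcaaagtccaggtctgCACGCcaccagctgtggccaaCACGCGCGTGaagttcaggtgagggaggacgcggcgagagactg
Abcc2 (chr1:252613625-252613924, plus strand): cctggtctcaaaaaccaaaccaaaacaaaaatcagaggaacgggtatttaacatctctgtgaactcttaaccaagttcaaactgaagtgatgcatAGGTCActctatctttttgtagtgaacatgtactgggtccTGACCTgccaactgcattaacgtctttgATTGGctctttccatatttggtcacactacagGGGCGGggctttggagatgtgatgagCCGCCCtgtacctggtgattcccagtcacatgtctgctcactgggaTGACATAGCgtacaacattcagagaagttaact
Abcg2 held 4 GC boxes, 1 aryl hydrocarbon receptor core and 1 cAMP element, at 62 bases before the start, in a window with 68% G and C. Of 33469 rat promoters of the same length, 33.1% held GGGCGG, 29.7% GCGTG and 1.83% TGACGTCA. Abcb4 held 1 GC box and 4 GCGTG cores at 74.3% G and C. Abcc2 was poorer in G and C (44.7%) and held 2 GC boxes, a CCAAT box (37.5% of promoters), 2 nuclear receptor sites (16.2%) and an antioxidant element (12.1%). No 2 matches overlapped in these windows, and a direct repeat of the nuclear receptor site with 1 base between, found in 0.0538% of promoters, was in none of the 3. TATAAA (14.2% of promoters) and CACGTG (6.42%) had no match in them. A match describes the letters only.

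**Figure D2:**
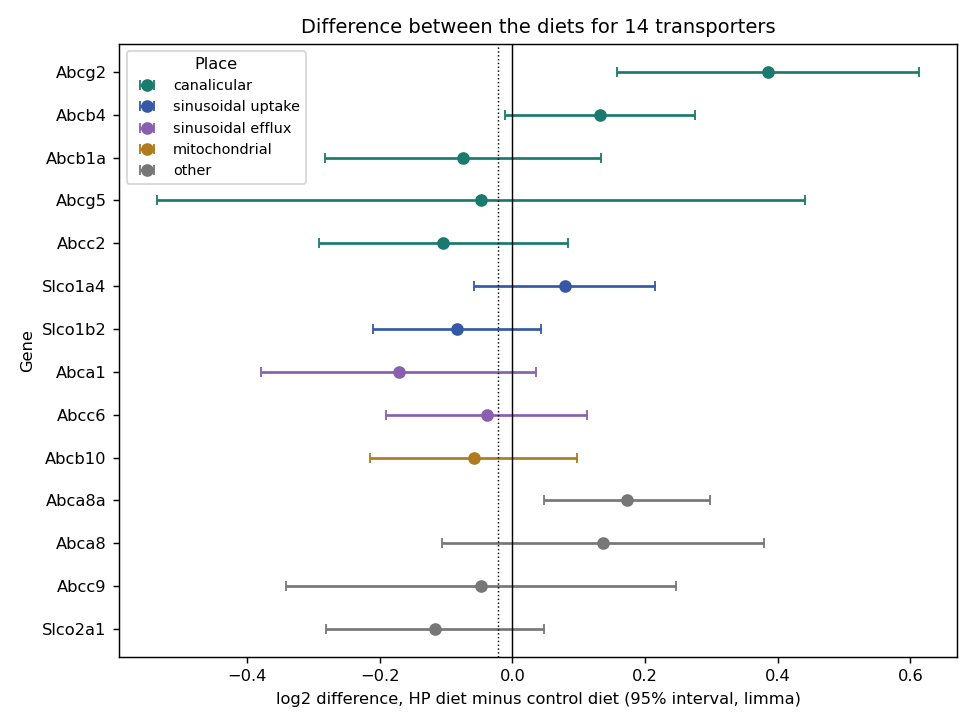
Difference between the diets (horizontal axis, log2, HP minus control) of each measured transporter, with the 95% interval of limma as a bar, coloured by place in the cell, a solid line at 0 and a dotted line at the median of all tested probe sets (-0.02). The intervals of Abcg2 (0.16 to 0.61) and Abca8a (0.05 to 0.30) lie above 0, and those of the other 12 cross it.

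On the sinusoidal face, 11 listed genes were on the array, 5 for uptake and 6 for efflux, and 4 were measured. Their differences were from -0.17 to 0.08 with a median of -0.06, and 0 were called in either direction by rank products on the probe set that stood for the gene. The 5 canalicular genes had differences of -0.10 to 0.39 and a median of -0.05, and the median of all tested probe sets was -0.02. The 2 faces were not tested against each other.

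Slco1b2, the liver-specific importer of bilirubin, bile acids and many drugs, had values of 11.83, 11.67, 11.88 and 11.92 in HP rats, against 11.88, 11.92, 11.91 and 11.92 in control rats. The control rats were tightly grouped at the top and HP rat 2 lay apart at the bottom, but HP rat 4 was among the control rats. The difference was -0.08 (interval -0.21 to 0.04, adjusted p of 0.527 by limma), and -0.03 without HP rat 2. A second probe set of the gene read 10.99, 10.61, 10.87 and 11.00 in HP rats and 11.07, 11.08, 11.13 and 11.00 in control rats. Here all HP rats were below all control rats, though HP rat 4 and control rat 4 both rounded to 11.00. The difference of -0.20 (interval -0.40 to -0.01) had an FDR of 0.0335 by rank products for a lower level. By limma its unadjusted p was 0.0417 and its adjusted p was 0.384. The 2 probe sets had the same sign, and only the dimmer one passed the rank product threshold and had separated diets.

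Slco1a4, an importer of bile acids, steroid conjugates and cardiac glycosides, had 12.25, 12.30, 12.27 and 12.27 in HP rats and 12.23, 12.06, 12.12 and 12.35 in control rats. The HP rats were tightly grouped, above 3 control rats and below control rat 4. The difference was 0.08 in this probe set (interval -0.06 to 0.22, adjusted p of 0.564 by limma) and 0.08 in a second one, in which control rat 4 was again the highest of the 8. Without control rat 4 the difference was 0.13 with an FDR of 0.0479, and without control rat 2 it was 0.04 with an FDR of 0.565. Slco1b2 and Slco1a4 are next to each other on chromosome 4 in the RefSeq annotation, followed by Slco1a1. Slco1a1, another importer of the male rat liver, was at 10.06 with a span under 0.01, and so was not measured despite its level. Members of the Slco1a group are similar in sequence, and a signal shared among them cannot be told apart here.

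Among the exporters to blood, Abca1 loads cholesterol and phospholipid onto apolipoprotein A-I. It read 9.17, 9.10, 9.04 and 9.22 in HP rats and 9.06, 9.29, 9.45 and 9.42 in control rats. Control rats 2, 3 and 4 were above all HP rats and control rat 1 was below all HP rats but rat 3. The difference was -0.17 (SE 0.09, interval -0.38 to 0.04), with an FDR of 0.072 by rank products and an adjusted p of 0.454 by limma. The other 3 measured Abca1 probe sets had differences of -0.04, -0.10 and -0.21. The paper lists Abca1 as lower on the HP diet, with the same difference of -0.21. The probe set with this difference had an FDR of 0.0413 for a lower level. It read 7.06, 6.82, 7.02 and 7.06 in HP rats and 6.84, 7.15, 7.38 and 7.43 in control rats. Control rat 1 was again low among the control rats. Without it, the difference of the first probe set was -0.25, and without control rat 3 it was -0.12. Abca1 is also made by macrophages, and of 8 Kupffer cell and macrophage markers on the array the 7 that were measured all had negative differences (median -0.15), with Cd5l (-0.33) called lower by rank products. Their summed linear level was 3914 to 4557 in HP rats and 3944 to 5218 in control rats, and their part in the Abca1 difference was not tested.

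Abcc6, which mediates the release of ATP from hepatocytes and thereby feeds the plasma pool of pyrophosphate, an inhibitor of calcification, was the other measured exporter to blood. It had 10.02, 9.90, 10.01 and 10.18 in HP rats and 10.09, 10.13, 10.05 and 10.00 in control rats. The control rats lay inside the range of the HP rats (difference -0.04, interval -0.19 to 0.11, adjusted p of 0.822 by limma). Without HP rat 2 the difference was 0.0049. Abcc1, Abcc3, Abcc4 and Abcc5, the multidrug resistance-associated exporters of the same face, did not span 0.05 on any probe set.

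The other 5 measured members were not on the lists for these faces, which does not place them elsewhere in the cell. Abca8a, an ABCA subfamily gene of the cluster on chromosome 10 that also holds Abca8, Abca9 and Abca6, had the second call. It read 10.14, 10.09, 10.14 and 10.07 in HP rats, against 9.99, 9.93, 9.82 and 10.01 in control rats. All HP rats were above all control rats, and the closest pair was HP rat 4 and control rat 4. The difference of 0.17 (1.13-fold, SE 0.06, interval 0.05 to 0.30) had an FDR of 0.0295 by rank products and an adjusted p of 0.320 by limma, and 993 of the 4155 probe sets had a larger one. The FDR was 0.834 when only the probe sets spanning 0.05 were ranked. It was 0.111, 0.109, 0.117 or 0.0966 without HP rat 1, 2, 3 or 4 and 0.0504 without control rat 3, so this call was lost with any 1 of these rats left out.

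Its neighbour Abca8 had 8.14, 8.22, 8.20 and 8.00 in HP rats and 7.99, 7.85, 7.89 and 8.29 in control rats. Again 3 control rats were below all HP rats and control rat 4 was the highest of the 8. The difference was 0.14 (interval -0.11 to 0.38, adjusted p of 0.572 by limma), and it was 0.23 with an FDR of 0.0153 without control rat 4 and 0.09 with an FDR of 0.246 without control rat 2. The pair is similar in sequence, and cross-hybridisation between them was not tested.

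Abcb10, of the inner mitochondrial membrane, had 7.92, 7.83, 7.84 and 7.98 in HP rats and 7.89, 7.93, 8.02 and 7.96 in control rats. The groups overlapped (difference -0.06, adjusted p of 0.729 by limma). Slco2a1, the prostaglandin importer, read 11.30, 11.24, 11.26 and 11.39 in HP rats and 11.21, 11.54, 11.44 and 11.46 in control rats. Control rats 2, 3 and 4 were above all HP rats and control rat 1 was below them (difference -0.12, interval -0.28 to 0.05, adjusted p of 0.502 by limma, and a difference of -0.19 without control rat 1 and -0.07 without control rat 2). Slco2a1 is known from endothelium, whose 4 measured markers had positive differences, and their part was not tested. Abcc9 encodes the sulfonylurea receptor subunit of ATP-sensitive potassium channels and is known from mural and stellate cells rather than from hepatocytes. It had 8.84, 8.51, 8.45 and 8.68 in HP rats and 8.70, 8.88, 8.75 and 8.34 in control rats, so that the range of the control rats held that of the HP rats (difference -0.05). Of 10 stellate cell and fibroblast markers, 6 were measured, with a median difference of 0.07 and a summed linear level of 3698 to 4435 in HP rats and 3554 to 4446 in control rats.

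By family, the sign was mixed in 4 of 5. The Abca members had a median of 0.14 over 3 measured genes, with 2 above 0 and 1 below. The Abcb members had 1 above and 2 below 0 (median -0.06, 3 genes). All 3 measured Abcc members were below 0, from -0.10 to -0.04, and 0 of them passed a test. Abcg had 1 on each side (median 0.17, 2 genes), and Slco had 1 above and 2 below (median -0.08, 3 genes). Over the 14 members, 5 differences were positive and 9 negative, a split to set beside 43.5% positive and 56.5% negative over all tested probe sets.

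**Figure D3:**
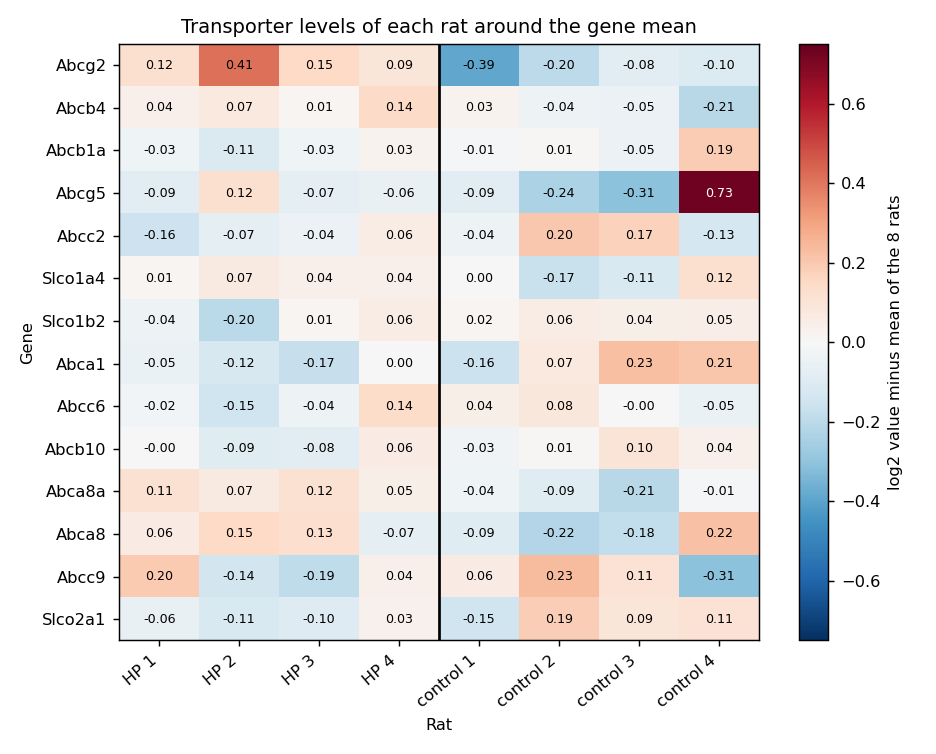
Log2 value of each measured transporter (rows) in each rat (columns, HP rats left of the line, control rats right) minus the mean of the gene over the 8 rats, red above and blue below it, with the number in each cell. Control rat 4 has the highest cell of the map, 0.73 for Abcg5, and departs from the other control rats in several rows in both directions.

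The rats differed in how often they were the highest or the lowest of their diet. HP rat 4 was the highest or the lowest of its diet for 11 of the 14 members (78.6%), against 56.6% over all tested probe sets. HP rat 2 and control rat 4 were at an edge of their diet for 9 members each (64.3%), against 47.7% of all tested probe sets for HP rat 2 and 52.5% for control rat 4. HP rats 1 and 3 were at an edge for 4 members each (28.6%), against 53.9% and 41.9%. Control rats 1, 2 and 3 were at an edge for 42.9%, 50% and 42.9% of members, against 61.1%, 41.3% and 45.1%. HP rat 2 was the highest HP rat for Abca8, Abcg2, Abcg5 and Slco1a4 and the lowest for Abcb10, Abcb1a, Abcc6, Slco1b2 and Slco2a1. Control rat 4 was the highest control rat for Abca8, Abca8a, Abcb1a, Abcg5 and Slco1a4 and the lowest for Abcb4, Abcc2, Abcc6 and Abcc9. Without control rat 4, rank products called 5 of the 14 members as higher (Abcg2, Abca8a, Abca8, Abcg5 and Slco1a4) and 0 as lower, where 9.48% and 2.89% of all tested probe sets were called. Without HP rat 2 it called 1 as higher, Abcg2, and 0 as lower, where 2.05% and 9.55% of tested probe sets were called. The SD was larger in control rats than in HP rats for 10 of the 14 members, as it was for 67.9% of tested probe sets.

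**Figure D4:**
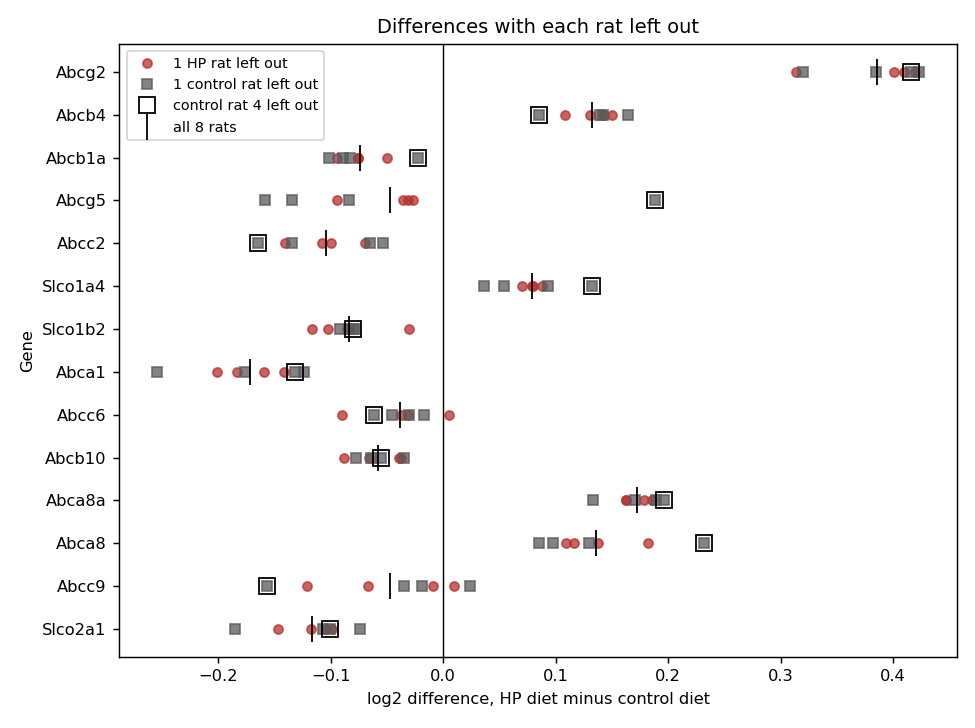
Difference between the diets (horizontal axis, log2, HP minus control) of each measured transporter with 1 rat left out, red circles for an HP rat and grey squares for a control rat, framed where control rat 4 was left out, and a tick for all 8 rats. Abcg2 stays between 0.31 and 0.42, whereas Abcg5 goes from -0.16 to 0.19.

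The companion genes of the same membranes were read from lists of other carriers, scaffolds and regulators. Each was read on its brightest probe set spanning 0.05. Their FDRs came from ranking all probe sets, the setting under which 2 members were called. In that setting 8.4% of all probe sets spanning 0.05 were called higher and 12.1% lower, and the counts below stand against these shares. Of 12 other hepatocyte carriers on the array, 6 were measured and 2 were called higher by rank products. Slc22a5, the carnitine importer, read 8.64, 8.50, 8.80 and 9.10 in HP rats and 8.67, 8.30, 8.16 and 7.83 in control rats. Only control rat 1 lay among the HP rats (difference 0.52, FDR 0.00151, adjusted p of 0.339 by limma). Slc22a8, an organic anion exchanger, had 10.04, 10.11, 9.96 and 10.00 in HP rats and 9.72, 9.94, 9.95 and 9.91 in control rats. These did not overlap, with a margin of less than 0.05 between the nearest rats (difference 0.15, FDR 0.0307, adjusted p of 0.394 by limma). The sodium-dependent bile acid importer Slc10a1 had a difference of 0.00.

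Of 7 scaffold genes on the array 3 were measured, and Rab11a, a small GTPase of the recycling endosomes that deliver transporters to the canaliculus, was called. It had 9.31, 9.27, 9.30 and 9.29 in HP rats, against 9.18, 9.13, 9.11 and 8.91 in control rats. The diets were apart, and control rat 4 was the lowest (difference 0.21, FDR 0.0202, adjusted p of 0.320 by limma). Of 12 regulators on the array 8 were measured, and 1 was called higher and 1 lower, against 8.4% and 12.1% of spanning probe sets. The paper lists Hnf4a as higher, and Nr5a2 and the carrier Atp8b1 as lower, on the HP diet. On the probe sets used here their differences were -0.10, -0.17 and -0.02, and none was called. Other probe sets of the companion genes were not read. Nr1h4, the bile acid receptor FXR, read 9.47, 9.59, 9.46 and 9.90 in HP rats and 9.34, 9.36, 9.57 and 9.39 in control rats (difference 0.19, FDR 0.0421 for a higher level). The groups overlapped through control rat 3. Nr0b2, the repressor SHP and a target of FXR, read 7.67, 9.00, 8.50 and 9.18 in HP rats and 7.98, 9.46, 9.64 and 8.40 in control rats, with a wide overlap (difference -0.28, FDR 0.0155 for a lower level). The paper also lists Nr1h4 as higher and Nr0b2 as lower, with the same differences of 0.19 and -0.28. Limma called 0 of the companion genes. Of the other ABC subfamilies only Abce1, a ribosome recycling factor and no transporter, was measured among 7 genes on the array (difference -0.09).

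The 28 members that were not measured were Abca2, Abca3, Abca4, Abca5, Abca7, Abcb6, Abcb8, Abcb9, Abcc1, Abcc3, Abcc4, Abcc5, Abcc8, Abcc10, Abcg1, Abcg3l1, Abcg4, Abcg8, Slco1a1, Slco1a3, Slco1a5, Slco1a6, Slco1c1, Slco2b1, Slco3a1, Slco4a1, Slco5a1 and Slco6b1. Their probe sets spanned less than 0.01 over the 8 arrays, so that no difference between the diets could be read for them in either direction. The span does not follow from a low level alone, since Slco1a1 (10.06) and Slco2b1 (9.68) were near constant at levels well above the array median of 6.65. Of the 14 measured members, 13 spanned 0.05 within each diet as well.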

How the data were processed

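Liver RNA of 8 rats was measured on 1 Affymetrix GeneChip rat array each. The deposited values are log2 levels that the authors obtained with FARMS, which condenses the probes of a set into a single value, and the submitters' processing notes name R 2.13.1. The step that made arrays comparable was not given in the sources used here. None was added. FARMS leaves many probe sets nearly constant, so the difference between arrays carries no reading there. The files hold no detection value, and precision is limited by the 4 arrays per diet.

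Genes were named from the platform annotation where a probe set had 1 symbol. 1 gene that matches the symbol rule is not reported here. The members and lists were chosen with earlier results of these data known. For rank products (numpy 2.4.6, Python 3.11.15), all probe sets were ranked in 16 differences and the null came from 1000 permutations within arrays, with an FDR under 0.05 in each direction. Limma 3.58.1 in R 4.3.3 (trended and robust empirical Bayes, statmod 1.5.0) was fitted over the 4155 probe sets spanning 0.05, control probe sets left out, with two-sided p-values and Benjamini-Hochberg adjustment. Standard errors and 95% intervals are from this fit. Both methods were tested on simulated data. Other software was pandas 2.3.3, scipy 1.17.1 and matplotlib 3.10.9. Named with values were the members called, with an unadjusted limma p under 0.05 or with separated diets, all measured canalicular and sinusoidal members, the 2 largest differences of each family, and the called companion genes. Abca8, Abcb10, Abce1 and Slc10a1 fall outside this rule and were added after their values were seen. Hnf4a, Nr5a2 and Atp8b1 also fall outside it and are given because the paper lists them. Summed marker levels are sums of 2 raised to the log2 value.

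The alternatives were centring each array on its spanning probe sets, quantile normalization, ranking only spanning probe sets with no span filter in limma, a span of 0.2, leaving out the dimmest 25% of probe sets, a gene's mean over its probe sets, empirical Bayes without trend, a block for the replicate number, array weights, and each rat left out.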

Additional observations from a re-analysis of the deposited data

Results flagged for a closer look

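Abcg5 in HP rat 2 stood apart from the other HP rats. Its log2 value of 6.96 was separated from the next by 0.858 of the range of the group, past the 95% critical value of Dixon's test for 4 samples. The measured members gave 28 such tests of a diet group, and chance flags about 5% of groups. Control rat 4, at 7.57 for the same gene, was not past that value among the control rats.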

How the results depend on the processing

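The 2 members called higher by rank products became 0 when only probe sets spanning 0.05 were ranked (FDR of 0.188 for Abcg2 and 0.834 for Abca8a) and 0 with a span of 0.2 (0.257 and 0.888), and 1, Abcg2, without the dimmest 25% (0.0536 for Abca8a). These settings rank fewer probe sets. In the same order, they called 0.60%, 0.60% and 5.61% of spanning probe sets as higher, against 8.4% in the main ranking. Leaving out single rats gave 1 to 5 such members, and 0 called lower. Without control rat 4 there were 5 (9.48% of tested probe sets), and with any 1 HP rat (2.05% to 3.06%) or control rat 3 (7.22%) left out there was 1. Without 1 rat, 2 to 5 members had HP rats above control rats without overlap, and 0 to 2 below, the 5 without control rat 4 (5.44% of tested probe sets) and the 2 without control rat 1 (10.4%). Members with an unadjusted limma p under 0.05 numbered 2 to 4 higher and 0 to 2 lower without 1 rat, and 4 higher and 3 lower with array weights. Of tested probe sets, 5.1% were higher without control rat 4, which gave the 4, and 11.4% lower without control rat 1, which gave the 2. With array weights 9.27% were higher and 11.8% lower. Limma called 0 members at an adjusted p under 0.05 under every alternative, where 2 higher and 0 lower had an unadjusted p under 0.05 in the fit reported. The Abcb median was 0.029 with a span of 0.2, where Abcb10 drops out. Without 1 rat the medians ran from 0.09 to 0.20 for Abca, -0.09 to -0.02 for Abcb, -0.16 to -0.01 for Abcc, 0.11 to 0.30 for Abcg and -0.12 to -0.03 for Slco. By place they ran from -0.084 to 0.085 for canalicular genes, the 0.085 without control rat 4, from -0.02 to 0.03 for uptake and from -0.15 to -0.08 for efflux. The sign turned for Abcg5 without control rat 4 (0.19), for Abcc6 without HP rat 2 (0.0049) and for Abcc9 without HP rat 3 (0.0094) or control rat 2 (0.023). Without 1 rat these genes ran from -0.16 to 0.19 (Abcg5), -0.090 to 0.0049 (Abcc6) and -0.16 to 0.023 (Abcc9). Centring, quantile normalization and the mean of probe sets changed no rank product call of a member. Centring and quantile normalization each gave 3 members higher without overlap and 3 higher at an unadjusted limma p under 0.05, Abcb4 added. The unadjusted limma background moved too, to 7.15% higher and 5.37% lower with centring. It was 6.06% higher and 6.16% lower with quantile normalization, against 5.37% and 7.29% in the fit reported. Without overlap, 4.14% of tested probe sets were higher with centring and 3.73% with quantile normalization, against 3.1% in the deposited values. The replicate numbers were taken to name rats only. Same-numbered rats deviated together with correlations of 0.48, 0.03, -0.12 and -0.20, and 1 of 4 HP rats correlated best with its own number. So few correlations cannot exclude a step shared by number. With the number as a block, 2 members were higher and 0 lower at an unadjusted limma p under 0.05, and 0 were called. Of tested probe sets, 4.62% were higher and 7.51% lower at this unadjusted p. Of the recomputed counts and medians, 218 kept their reading, 8 were weaker, 8 were stronger and 2 moved. Of the values of single members, 178 kept their reading, 10 were weaker, 3 were stronger and 4 changed sign. Those kept include counts of 0 that stayed 0, counts that went from 2 to 3, and uncalled members that stayed uncalled with the same sign. The tally is therefore no measure of how firm the 2 calls are.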
